A study of Mus musculus with 12 samples.

Results

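Geminin was raised with doxycycline (dox) in mouse embryoid bodies, and 6 of the series' 12 arrays belong to that experiment. They are the arrays whose titles name the Geminin overexpression line: 3 with dox and 3 controls without it, taken as 3 pairs of equal replicate number. All came from A2lox embryonic stem (ES) cells of the 129P2/OlaHsd background in their Geminin overexpression form, so the controls carry the same inducible transgene and differ only in receiving no dox. Dox was added at 0.5 µg/ml from day 3 of differentiation. The pairs of replicates 1 and 2 were collected on day 5, and the pair of replicate 3 on day 4. Day 4 therefore has 1 pair, and day cannot be told apart from replicate 3 or from the shorter time on dox. The other 6 arrays are of a Geminin knockdown line of the same background, with dox from day 0 or none, collected on day 4. They enter here only through the shared estimate of spread and as a comparison for the dox effect. Nothing in the labels says that the replicates came from separate cultures or that either line is more than 1 clone, so any p-value reflects the spread among these arrays alone, which may be technical.

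Geminin (gene Gmnn) is a small nuclear protein that binds the licensing factor Cdt1 during S phase and G2 and so keeps origins from being licensed again before mitosis. The anaphase-promoting complex destroys it at the end of mitosis, which lets licensing begin anew. It also binds chromatin and transcription regulators, among them the Brg1 ATPase of the BAF remodelling complex, polycomb proteins, Six3 and Hox proteins, and has been studied for its part in the exit from pluripotency and in the choice of germ layer. Embryoid bodies are aggregates in which ES cells leave pluripotency, pass through an epiblast-like state and start mesoderm, endoderm and ectoderm. In A2lox cells the dox-responsive transgene sits beside Hprt, the X-linked gene of a purine salvage enzyme.

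RNA was read on Affymetrix Mouse Gene 1.0 ST arrays. Levels are log2 of the deposited intensity plus 1 after quantile normalization, a difference is dox minus no dox on that scale within a pair, and 15950 genes were tested with limma. The deposited array medians lay between 7.19 and 7.52 on the log2 scale. Transcripts of embryoid bodies at this stage were well above the filter level of 6.46 in all 6 arrays: the pluripotency factor Pou5f1 lay between 11.96 and 12.64, Nanog between 11.25 and 12.02, and the streak factor Eomes between 10.06 and 11.60. Mean levels of 24 fibroblast genes, markers of the feeder layer on which ES cells are kept, differed with dox by little in each pair. They were 8.22 without and 8.26 with dox in pair 1, 8.22 and 8.30 in pair 2, and 8.02 and 8.10 in pair 3, and their part in the results below was not tested.

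Gmnn (probe set 10408321) was higher with dox in every pair. Without dox it stood at 10.29 and 10.15 on day 5 and at 10.35 on day 4. With dox it stood at 11.38 and 10.83 on day 5 and at 11.04 on day 4, so the 3 dox arrays lay above the 3 controls with no overlap. The pair differences were 1.08, 0.68 and 0.69, a mean of 0.82 ± 0.23 (SD, n = 3 pairs), or 1.76-fold. The exact two-sided sign-flip test over the 3 pairs gave p = 0.25, the smallest value 3 pairs allow. In limma the difference was 0.82 ± 0.10 (SE) with an adjusted p of 0.637, so Gmnn did not pass the test over all genes. It did pass when each array was centred on its median instead of quantile normalized (limma adjusted p = 0.0141), and with a robust variance prior that depends on the level (limma adjusted p = 0.0139). The day 4 difference minus the day 5 difference was -0.19 ± 0.22 (SE). Whether the probe set reads the transgene, the gene's own transcript or both is not given in the sources used here.

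Hprt (probe set 10599627) rose with dox and was the only gene that passed, 1 of 15950 or 0.00627%. Its controls stood at 7.33 and 8.22 on day 5 and 8.08 on day 4. With dox it stood at 11.07, 11.14 and 11.74, far above every control. The pair differences were 3.74, 2.92 and 3.66, and the fitted difference was 3.44 ± 0.22 (SE), 10.9-fold (limma adjusted p = 0.0165). Without pair 1, 2 or 3 it stayed between 3.29 and 3.70 but no longer passed (limma adjusted p = 0.361, 0.0695 and 0.364). Dox raised Hprt in the knockdown line too, by 3.81 ± 0.22 (SE), and the difference between the lines was -0.37 ± 0.31 (SE; limma adjusted p = 0.741).

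**Figure D1:**
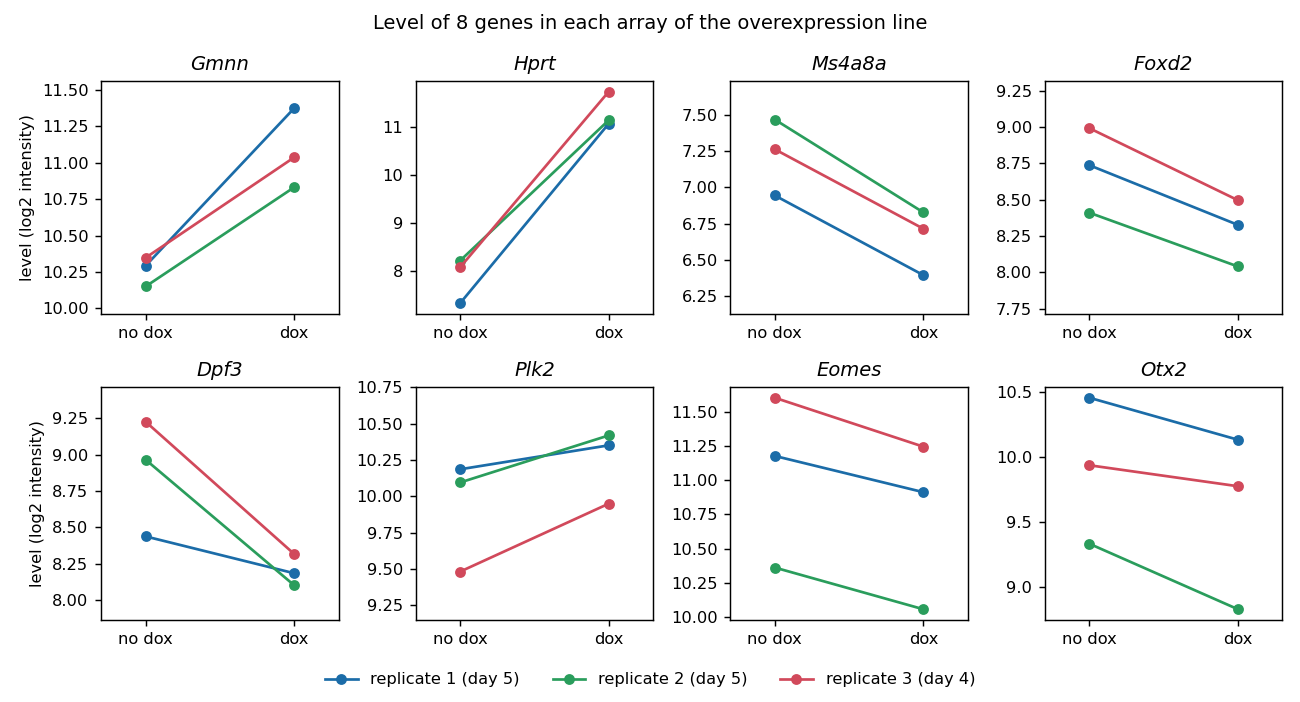
Level (log2 intensity after quantile normalization) of 8 genes in the 6 arrays of the overexpression line, with a line joining the arrays of each pair; axes differ between panels and do not start at 0. Gmnn and Hprt were higher with dox in each pair, Plk2 too, while Ms4a8a, Foxd2, Dpf3, Eomes and Otx2 were lower in each pair, and the offset between pairs was often larger than the dox difference within one.

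Across all genes the differences were small and mostly not shared between pairs. At an unadjusted limma p under 0.05, 302 genes were higher with dox (1.89%) and 270 lower (1.69%). With no quantile normalization the split was 356 higher and 150 lower, and with median centring 112 and 203, so the balance of directions is set by the scaling. In all 3 pairs 2643 genes were higher (16.6%) and 1668 lower (10.5%). These shares were 19.8% and 7.64% with no quantile normalization, and 10.0% and 8.40% with median centring. The median difference of all genes was 0.00, 0.02 and 0.03 in pairs 1, 2 and 3, and -0.08, 0.00 and 0.10 with median centring, so a difference of this size in a single pair can change sign with the scaling.

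The pairs resembled each other weakly. Across the 15950 genes, which are not independent replicates, the differences of the day 5 pairs correlated at Pearson r = 0.137, and at 0.115 without Hprt and Gmnn. The day 4 pair correlated with pair 1 at -0.04 and with pair 2 at 0.07. Of 19 genes past 0.5 in size in both day 5 pairs, 11 had the same sign in both, and 3 of these were also past 0.5 with that sign on day 4. These 3 were Gmnn, Hprt and Ms4a8a, the last a membrane protein gene of the MS4A family and the sole one of them that was lower. Pair 3 had more genes lower by over 0.5 than the others, 292 against 89 and 85, and fewer higher, 58 against 125 and 115. Of those 292 genes, 205 had a mean level below 8.41, the median of tested genes, as did 48 of the 58. With median centring pair 3 had 221 lower and 85 higher, and with no quantile normalization 407 and 27.

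Among genes higher with dox in all pairs, the 12 with the largest smallest-pair difference were Hprt, Gmnn and 10 genes of small size, 0.32 to 0.59. Of the 12, 9 had a mean level below the median of tested genes, and 10 had an unadjusted limma p under 0.05. The 12 were picked by these same differences, so small p-values among them follow from the choice and carry no test. Cd79a, a signalling chain of the B cell receptor, was at 1.05, 0.28 and 0.44 in pairs 1 to 3, from control levels of 5.95, 6.46 and 6.15. Pllp, a myelin and membrane raft protein, was at 0.45, 0.32 and 0.36, a fitted difference of 0.38 ± 0.07 (SE). Hspb1, the small heat shock protein Hsp27, was at 0.36, 0.37 and 0.29 from controls of 9.76, 10.65 and 9.81, the one gene besides Gmnn and Hprt above the median level. Ptchd1, a patched-domain membrane protein, was at 0.38, 0.41 and 0.95. Lrat, which esterifies retinol, was at 0.78, 0.59 and 0.33, and its fitted difference of 0.57 had an SE of 0.46, since the SE pools the spread of both lines. The others were the cytochrome P450 gene Cyp2d34 (0.43 ± 0.14), the trefoil factor Tff1 (0.32 ± 0.13), Adam4 (0.33 ± 0.12), the zinc-binding glycoprotein Azgp1 (0.41 ± 0.14) and Ankrd12 (0.32 ± 0.16). Without dox the means of Cyp2d34, Lrat, Azgp1 and Cd79a were 6.26, 6.34, 6.29 and 6.18, below the filter level of 6.46. With dox they were 6.69, 6.91, 6.70 and 6.77, above it. The filter took the mean over all 12 arrays, so these genes may have been kept only through arrays where they were higher. No gene here but Hprt passed adjustment. In the knockdown line 10 of the 12 were lower with dox, beside 47.3% of all genes.

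Among genes lower in all pairs, the 12 chosen in the same way had fitted differences from -0.84 to -0.36, and 10 of them had levels below the median of tested genes. Ms4a8a stood at 6.94, 7.47 and 7.26 without dox and at 6.40, 6.83 and 6.72 with it. Every dox array lay below every control. Its pair differences were -0.55, -0.64 and -0.55, with a fitted difference of -0.58 ± 0.08 (SE; limma adjusted p = 0.655). Foxd2, a forkhead transcription factor, stood at 8.74, 8.41 and 8.99 without and 8.33, 8.04 and 8.50 with dox, so the groups overlapped while each pair moved alike, by -0.41, -0.37 and -0.50 (fitted difference -0.43 ± 0.06 SE). Gas2l2, a linker of actin and microtubules, was at -0.61, -0.38 and -0.57. Gmnc, also called Gemc1, a member of the Geminin family that drives multiciliated cell fate, was lower at -0.39, -0.35 and -0.43, from controls of 6.63, 6.79 and 6.80 that lie close to the filter level. Galnt18, which starts O-linked glycosylation, had the largest mean, -0.84 ± 0.25 (SE), but its pairs ranged from -0.29 and -0.74 on day 5 to -1.50 on day 4. Hmgb1-rs17 was at -0.45, -0.72 and -0.63. It is a near-identical copy of Hmgb1, so which copy its probes read is uncertain. The remaining 6 were the muscle phosphoglycerate mutase Pgam2 (-0.41 ± 0.13), the sulfotransferase Gal3st4 (-0.51 ± 0.27), Akap17b (-0.42 ± 0.13), Ms4a12 (-0.57 ± 0.23), Nrn1l (-0.36 ± 0.37) and Vxn (-0.36 ± 0.11). None passed adjustment, and 10 of the 12 had an unadjusted limma p under 0.05, which again follows from the choice and carries no test. In the knockdown line 8 of the 12 were higher with dox, beside 52.7% of all genes.

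**Figure D2:**
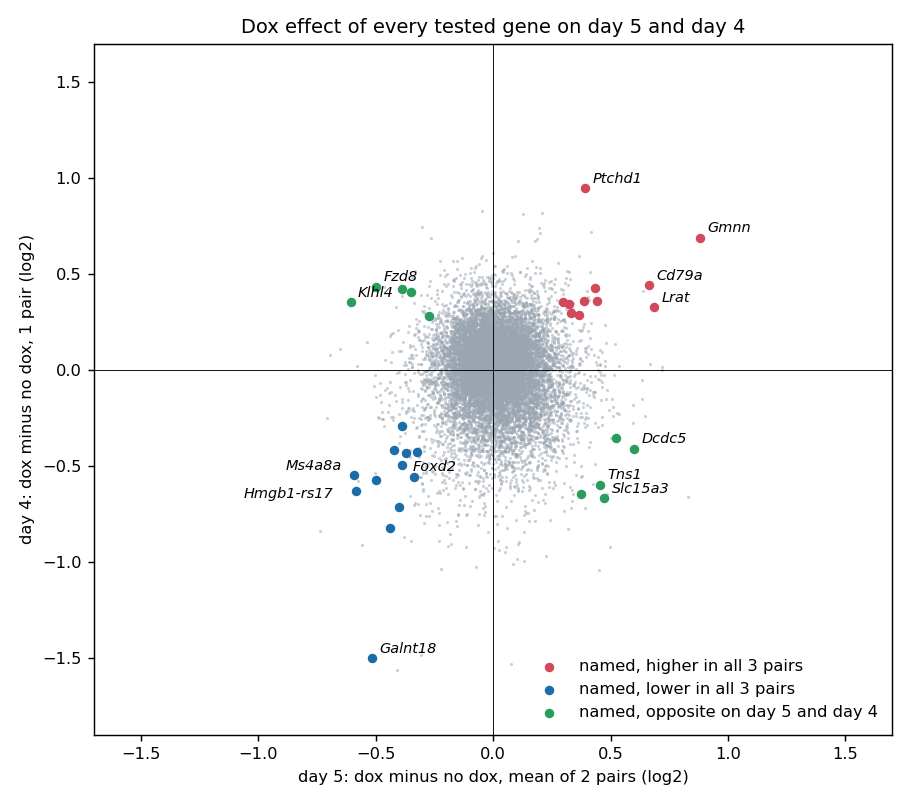
Difference with dox on day 5 (mean of 2 pairs, x axis, log2) against day 4 (1 pair, y axis, log2) for every tested gene but 1, Hprt, which lies outside the plotted range; named genes are coloured. The cloud is round around 0 with a tail towards lower values on day 4, and Gmnn lies apart at the upper right.

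No gene differed between the days by limma after adjustment, 0 of 15950 (0%). At an unadjusted p under 0.05 the day 4 difference exceeded the day 5 difference for 132 genes and was below it for 285, with a smallest limma adjusted p of 0.999. Fzd8, a Wnt receptor, was lower with dox on day 5, by -0.65 and -0.34, and higher on day 4, by 0.43, from control levels of 8.71, 7.80 and 7.48. That order of signs was shown by 2153 genes (13.5%), and the reverse by 2071 (13%). Ranked by the smallest of the 3 differences in size, Zcchc12 (-0.43, -0.35 and 0.42) came just before Fzd8. After Fzd8 came the maternal factor Dppa3 (-0.29, -0.41 and 0.41), Klhl4 (-0.93, -0.28 and 0.35) and the surrogate light chain gene Vpreb1 (-0.27, -0.27 and 0.28). Tns1, the focal adhesion protein tensin, had the reverse order, at 0.39 and 0.52 on day 5 and -0.60 on day 4, from control levels of 10.01, 9.49 and 9.94. By the same ranking the peptide transporter Slc15a3 (0.44, 0.51 and -0.67) and Dcdc5 (0.55, 0.65 and -0.41) came before Tns1. The epidermal caspase Casp14 (0.60, 0.45 and -0.35) and Fam78b (0.34, 0.40 and -0.65) came after Tns1. These 10 genes were picked for their opposite signs, so the signs themselves carry no test.

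Genes were also grouped by known roles in 25 lists, and 0 of their 593 tested genes passed adjustment by limma, Gmnn included. At an unadjusted limma p under 0.05, 21 of the 593 were higher and 14 lower, to be read against 1.89% and 1.69% of all genes. A list is described by how many members were higher or lower in all 3 pairs, to be read against 16.6% and 10.5% of all genes, and by its median, to be read against 0.01 for all genes. In such bulk samples, fewer cells of a type and less RNA per cell cannot be told apart.

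**Figure D3:**
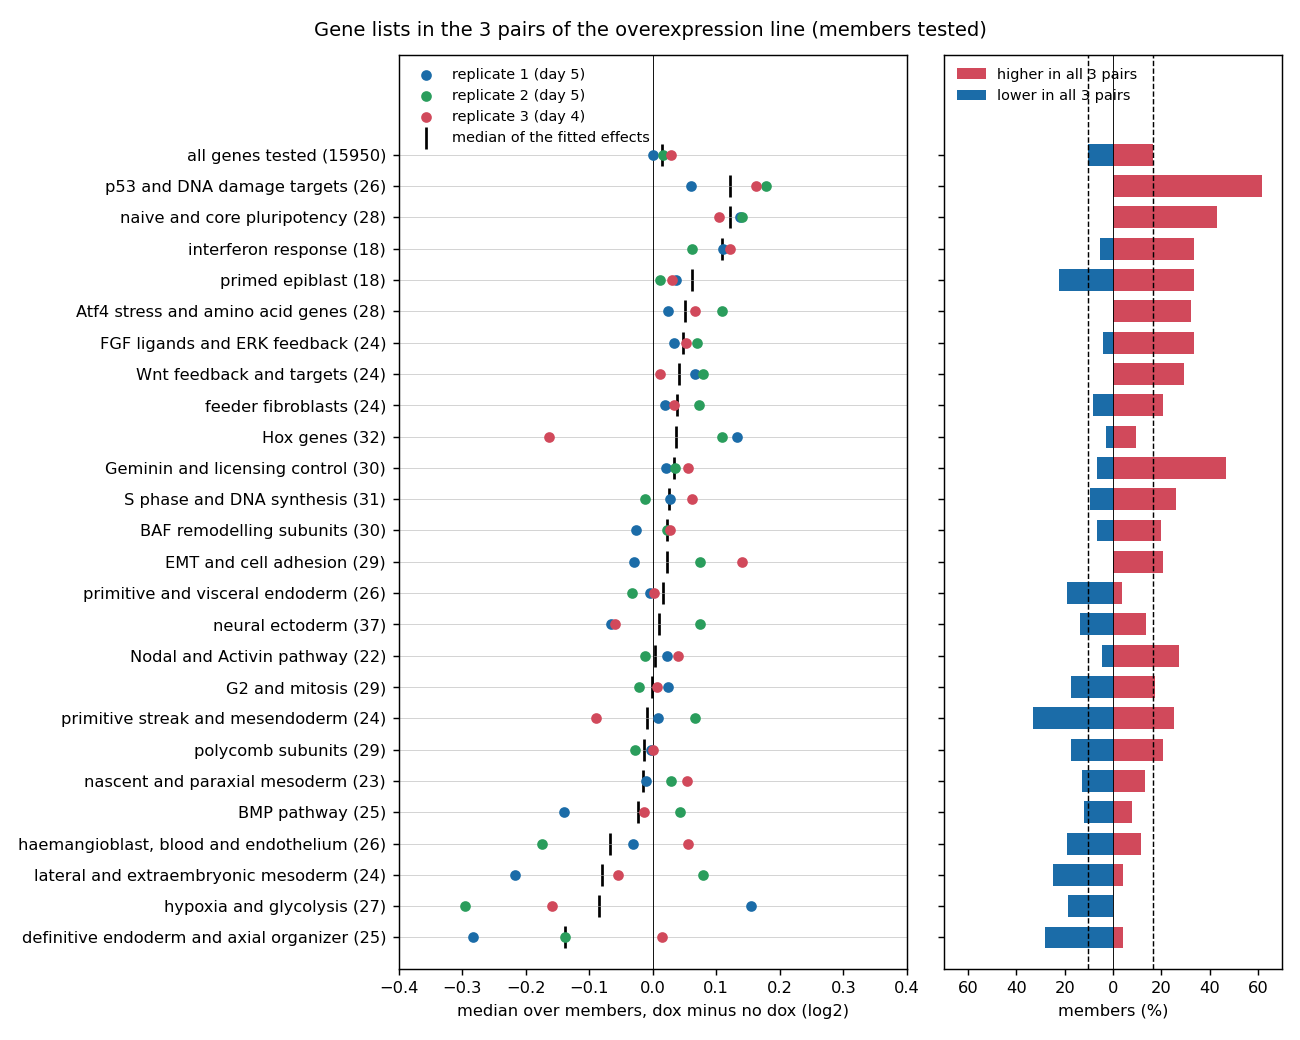
Left, median difference with dox (log2) over the tested members of each list in each pair (points) and of the fitted effect (tick); right, share of members (%) higher or lower in all 3 pairs, with dashed lines at the shares of all genes. The p53 and pluripotency lists have points right of 0 in every pair, the Hox list has its day 4 point at -0.16 against 0.13 and 0.11 on day 5, and the hypoxia list is split by replicate.

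Geminin and its partners and regulators in licensing came first. Of 30 genes, 14 were higher in all pairs (46.7%) and 2 lower (6.67%), but the median was only 0.03. Gmnn itself is among the 30 and the 14. With median centring 3 were higher (10.0%) and 2 lower, so that count is set by the scaling. Cdt1, the protein Geminin holds, was at 0.06, 0.13 and 0.11, and Cdc6, which loads the MCM helicase with Cdt1, at 0.06, 0.03 and 0.08, both named for their role. The MCM subunit Mcm5 was at 0.10, 0.10 and 0.12, and Mcidas (multicilin), the other Geminin relative, at 0.10, 0.10 and 0.26, opposite in sign to Gmnc. Fzr1, the activator that brings Geminin to the anaphase-promoting complex, was at 0.07, 0.10 and 0.12, named for its role. Of the list, Gmnn and Gmnc alone had an unadjusted limma p under 0.05.

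Cell cycle genes as a whole lay near 0. Of 31 S phase genes 8 were higher and 3 lower in all pairs, with a median of 0.03, and with median centring 0 were higher and 2 lower. Ccne2, cyclin E2, was the one member at an unadjusted limma p under 0.05, at -0.42, -0.12 and -0.14. It stood at 8.52, 8.36 and 8.77 without dox and at 8.10, 8.24 and 8.63 with it. Pcna, the polymerase clamp, was at 0.10, 0.12 and 0.10. Of 29 genes of G2 and mitosis 5 were higher and 5 lower, with a median of 0.00. Top2a, topoisomerase II alpha, was at -0.11, -0.14 and -0.08.

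Targets of p53, the factor that halts or kills cells after DNA damage, had the highest share of members higher in all pairs. Of 26 members 7 had an unadjusted limma p under 0.05, all higher, beside 1.89% of all genes higher at that p. In all pairs 16 were higher (61.5%) and 0 lower, and the pair medians were 0.06, 0.18 and 0.16. With median centring 4 were higher in all pairs (15.4%) and 0 lower, beside 10.0% and 8.40% of all genes, so that count depends on the scaling. The median of pair 1 then turned to -0.06 while pairs 2 and 3 stood at 0.16 and 0.25, beside -0.08, 0.00 and 0.10 for all genes. With no quantile normalization 16 were higher and 1 lower. Plk2, a polo-like kinase, stood at 10.19, 10.10 and 9.48 without dox and at 10.35, 10.42 and 9.95 with it, differences of 0.16, 0.32 and 0.47. Btg2, an antiproliferative factor, was at 0.25, 0.10 and 0.28, and the death receptor Tnfrsf10b at 0.19, 0.18 and 0.15. Eda2r, another receptor of the TNF family, was at 0.10, 0.37 and 0.18. Mdm2, which p53 induces and which degrades p53, was at 0.05, 0.24 and 0.18, and the growth arrest gene Gadd45a at 0.07, 0.27 and 0.38, both named for their role. Zmat3 was at -0.18 in pair 1 against 0.31 and 0.26 in the others. Ddit4, which hypoxia and stress also induce, went the other way, at 0.33, -0.25 and -0.29. Tigar was at 0.08, 0.89 and -0.64. Ddit4, Zmat3 and Tigar were chosen after their values were seen.

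Promoters of this list are shown because 16 of its 26 members were higher in all pairs under quantile normalization, a count that was 4 with median centring. RefSeq promoters (GRCm38.p6, 300 bases around a start site) were found for 19 of the 26 members. They were searched for the p53 response element, which repeats a palindromic unit without a spacer. Up to 3 mismatches to the consensus were allowed, none of them at the invariant C and G of each unit. The element is its own reverse complement, so 1 strand covers both. It was present for 6 of the 19 (31.6%) against 441 of 27025 genes (1.63%), and for 2 of the 11 that were higher in all pairs (18.2%). A perfect single unit, which a full element can contain, was present for 7 of the 19 (36.8%) against 2582 of all genes (9.55%), among them Aen, Ccng1, Ei24, Gadd45a and Mdm2 of those 11 (45.5%). The list was made of known p53 targets, so an excess over all genes follows from that choice and says nothing about dox. A match is a description of the letters in this window, not a measured site. Among the 11, the 2 genes with a full element are Ccng1 (cyclin G1) and Aen (an apoptosis nuclease). For Aen another overlapping window, chr7:78895677-78895976, holds the same element and is not printed. Printed are chr11:40755237-40755536 (Ccng1, minus strand, 1 mismatch) and chr7:78895808-78896107 (Aen, plus strand, 3 mismatches), with the element in capitals:
Ccng1: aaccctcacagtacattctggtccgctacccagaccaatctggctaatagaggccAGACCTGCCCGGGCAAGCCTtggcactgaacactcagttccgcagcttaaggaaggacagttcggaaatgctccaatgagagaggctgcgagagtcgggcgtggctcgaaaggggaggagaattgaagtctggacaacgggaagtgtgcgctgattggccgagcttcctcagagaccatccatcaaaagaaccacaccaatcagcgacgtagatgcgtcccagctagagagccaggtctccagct
Aen: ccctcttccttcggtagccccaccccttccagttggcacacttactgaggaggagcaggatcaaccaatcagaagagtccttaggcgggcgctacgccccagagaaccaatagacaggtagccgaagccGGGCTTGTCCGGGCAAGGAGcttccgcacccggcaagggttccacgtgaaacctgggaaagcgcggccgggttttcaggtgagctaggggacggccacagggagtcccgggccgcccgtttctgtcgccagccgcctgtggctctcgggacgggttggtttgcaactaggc
Their differences with dox were small: Ccng1 was at 0.02, 0.23 and 0.10, and Aen at 0.04, 0.27 and 0.14.

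Naive and core pluripotency genes also leaned to one side, and their count was the same under each scaling. Of 28 members 12 were higher in all pairs (42.9%) and 0 lower. The pair medians were 0.14, 0.14 and 0.11. Gdf3, a TGF-beta family ligand of ES cells, stood at 8.93, 9.66 and 9.65 without dox and 9.26, 9.92 and 9.91 with it. Its difference of 0.28 ± 0.09 (SE) was the one of the list at an unadjusted limma p under 0.05. Zfp42 (Rex1), a marker of the naive state, was at 0.37, 0.44 and 0.13, and Fbxo15 at 0.18, 0.42 and 0.27. Dppa2 was at 0.20, 0.26 and 0.15. Klf4 and Esrrb, named as factors of the naive network, were at 0.38, 0.50 and 0.03 and at 0.14, 0.37 and 0.11. Klf2 and Klf5, chosen after their values were seen, were at 0.14, 0.14 and -0.10 and at -0.10, 0.24 and 0.02. Of the core factors, Sox2 and Nanog had fitted differences of 0.142 and 0.125, near the list median of 0.121. That of Pou5f1 was 0.024. Sox2 was at 0.11, 0.17 and 0.14, Nanog at 0.28, 0.10 and 0.00 and Pou5f1 at 0.08, -0.04 and 0.03, named for their role. Dppa3 was at -0.29, -0.41 and 0.41. The offset between replicates was larger than any dox effect: mean levels of the list without dox were 9.56, 10.22 and 9.85 in replicates 1 to 3, against 9.68, 10.38 and 9.95 with dox.

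Genes of the primed epiblast, the state that follows, divided. Of 18 members 6 were higher and 4 lower in all pairs, with a median of 0.06, and with median centring 4 and 3. Lower were Otx2, a homeobox factor that moves cells out of the naive state, at -0.32, -0.50 and -0.16, Fgf5, the classical epiblast marker, at -0.14, -0.44 and -0.20, Zic2 at -0.09, -0.45 and -0.25, and the de novo methyltransferase Dnmt3b at -0.19, -0.35 and -0.04. Otx2 stood at 10.46, 9.33 and 9.94 without dox and at 10.13, 8.83 and 9.78 with it (fitted difference -0.33 ± 0.10 SE). Higher were Pou3f1 (Oct6) at 0.21, 0.12 and 0.13 and Foxd3 at 0.05, 0.19 and 0.19. Dnmt3b and Foxd3 were chosen after their values were seen.

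Primitive streak and mesendoderm genes divided as well, 6 of 24 higher (25.0%) and 8 lower (33.3%) in all pairs, around a median of -0.01. The 8 lower ones were Eomes, Lhx1, Foxa2, Gsc, Gata6, Mesp2, Sp8 and Lhx5. Eomes, a T-box factor required for definitive endoderm and mesoderm, stood at 11.18, 10.36 and 11.60 without dox and at 10.91, 10.06 and 11.25 with it, differences of -0.27, -0.30 and -0.36. Lhx1 was at -0.37, -0.32 and -0.21, Foxa2 at -0.28, -0.26 and -0.13, and Gsc at -0.29, -0.09 and -0.24. The higher ones included Cdx1 at 0.54, 0.26 and 0.07 and Cdx2 at 0.30, 0.46 and 0.05, homeobox factors of the posterior axis, chosen here after their values were seen. With median centring 6 were higher and 7 lower, and with no quantile normalization 7 and 5.

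Definitive endoderm and organizer genes mostly stood below 0 on day 5. Of 25 members 7 were lower in all pairs (28.0%) and 1 higher (4.00%). An unadjusted limma p under 0.05 was reached by 3, all lower, beside 1.69% of all genes lower at that p. The pair medians were -0.28 and -0.14 on day 5 and 0.01 on day 4, and 5, 6 and 14 of 25 members were higher in pairs 1, 2 and 3, beside 50.2%, 55.3% and 57.5% of all genes. With no quantile normalization 10 were lower in all pairs, and the day 4 median was -0.045. Frzb, a secreted Wnt antagonist, was at -0.61, -0.36 and -0.25, from controls of 10.07, 8.35 and 9.11. Emb (embigin), a surface protein of early endoderm chosen after its values were seen, was at -0.48, -0.35 and -0.13, a fitted difference of -0.32 ± 0.08 (SE). Cxcr4, the chemokine receptor used to sort definitive endoderm, was at -0.41, -0.14 and -0.26. Cer1, a secreted Nodal and BMP antagonist, was at -0.85 and -0.46 on day 5 and 0.11 on day 4. Hhex, of the anterior endoderm, was at -0.52, -0.27 and 0.10. Sox17, named as the defining endoderm factor, was at -0.45, -0.16 and 0.03. Lefty1 and Lefty2, Nodal antagonists on the same list, were at 0.40, -0.17 and 0.51 and at 0.52, 0.04 and 0.01. Cer1, Hhex, Lefty1 and Lefty2 were chosen after their values were seen. Otx2, Lhx1, Foxa2, Gsc and Dkk1 belong to this list and to one of the former, so the counts overlap.

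**Figure D4:**
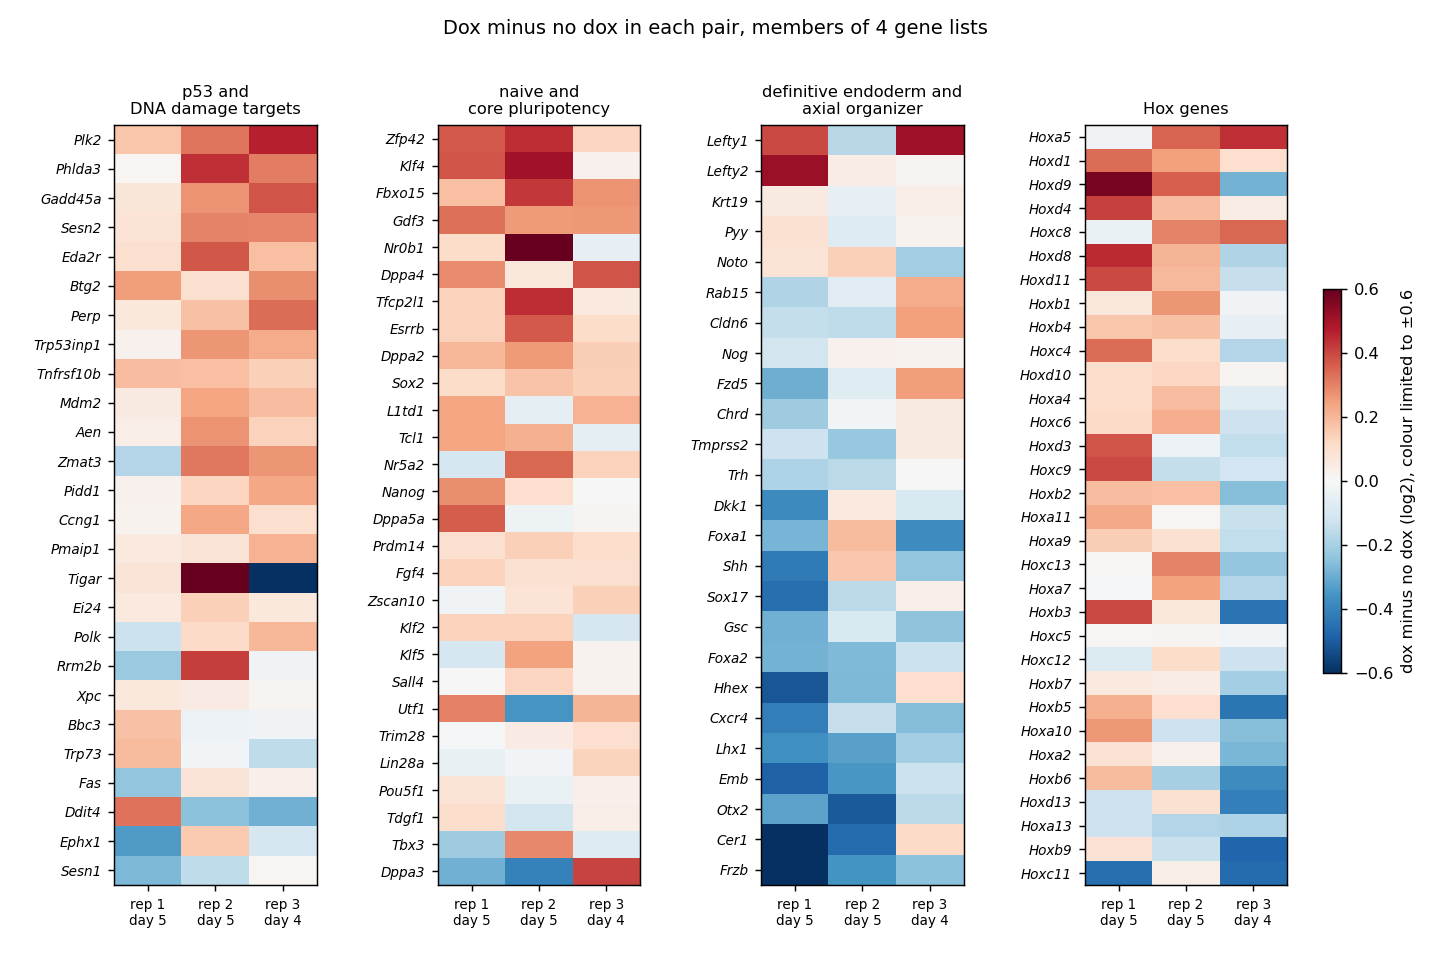
Difference with dox (log2, colour limited to 0.6 in either direction) of every tested member of 4 lists in pairs 1, 2 (day 5) and 3 (day 4), sorted by the fitted difference. The p53 and pluripotency columns are mostly red in all pairs, the endoderm column mostly blue on day 5, and the Hox column red on day 5 and blue on day 4.

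Primitive and visceral endoderm genes, the outer layer of embryoid bodies, showed no common shift, with 1 of 26 higher and 5 lower in all pairs and a median of 0.02. Of its basement membrane genes, Lama1, a laminin chain, was at -0.01, -0.07 and 0.46, Col4a2 at -0.07, -0.08 and 0.39, Col4a1 at 0.02, -0.17 and 0.30 and Sparc at 0.00, 0.00 and 0.30. The laminin chains Lamb1 and Lamc1 were at -0.05, -0.03 and 0.16 and at 0.00, -0.03 and 0.15. These 6 were chosen after their values were seen. Apoe, a lipid carrier, was at 0.09, 0.23 and 0.08. The lineage factors Gata4 and Gata6 were at -0.15, -0.02 and -0.16 and at -0.27, -0.07 and -0.12.

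Mesoderm lists were mixed. Of 23 nascent and paraxial mesoderm genes 3 were higher and 3 lower in all pairs, with Cyp26a1, which clears retinoic acid, at -0.36, -0.37 and -0.21 and the somite factor Tcf15 at 0.24, 0.10 and 0.25. Of 24 lateral and extraembryonic mesoderm genes 1 was higher and 6 lower (25.0%), with 4 lower under median centring. The pair medians were -0.22, 0.08 and -0.05, so most of the shift stood in pair 1. Bmp2 was at -0.69, -0.31 and -0.03. Kdr (Flk1), the receptor that marks the common precursor of blood and endothelium, stood at 9.65, 10.31 and 8.89 without dox and 9.21, 10.00 and 8.83 with it, differences of -0.44, -0.31 and -0.06. Prrx1 was at -0.88, 0.13 and -0.33 and was chosen after its values were seen. Of 26 haemangioblast, blood and endothelium genes 3 were higher and 5 lower, with Eng (endoglin) at 0.19, 0.41 and 0.12, Lmo2 at 0.15, 0.19 and 0.23 and Etv2, named as the master factor of these lineages, at -0.27, -0.13 and 0.01.

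Neural ectoderm genes lay near 0, with 5 of 37 higher and 5 lower in all pairs and a median of 0.01. Six3, a forebrain factor that Geminin binds, was at 0.18, 0.15 and 0.21, from controls of 6.97, 7.03 and 6.90 that are close to the filter level. Sox1 and Pax6, named as defining neural factors, were at 0.03, -0.02 and -0.19 and at -0.27, 0.13 and 0.31. Nkx6-1, chosen after its values were seen, was at -0.09, -0.36 and -0.64.

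Hox genes, whose proteins Geminin can bind, differed in direction between the days. On day 5, 25 and 26 of 32 members were higher with dox in pairs 1 and 2, with medians of 0.13 and 0.11. On day 4, 5 of 32 were higher, and the median was -0.16. Of all genes 50.2%, 55.3% and 57.5% were higher in pairs 1, 2 and 3. The signs of these medians held in each of the 3 scalings, at 0.236, 0.158 and -0.225 with no quantile normalization and 0.12, 0.107 and -0.137 with median centring. Mean levels of the list were low, 7.27 and 7.60 without dox on day 5 and 7.45 on day 4, below 8.41, the median of tested genes. Of the 292 genes lower by over 0.5 in pair 3, 205 were also below that median, as were 48 of the 58 higher. Whether the low level bears on the Hox signs was not tested. Hoxd4 was at 0.41, 0.19 and 0.05 and Hoxd1 at 0.34, 0.25 and 0.10, both higher in all pairs, whereas Hoxa13 was at -0.12, -0.17 and -0.18. Examples of the opposite signs, chosen after their values were seen, are Hoxd9 at 0.57, 0.36 and -0.28, Hoxb3 at 0.40, 0.07 and -0.44 and Hoxb5 at 0.22, 0.10 and -0.44. Hoxb3 had the smallest of their limma p for the day difference (-0.67 ± 0.18 SE, adjusted p = 0.999). With 1 pair on day 4 the difference between days was not tested for the list, and it cannot be told apart from replicate 3.

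Signalling lists held few large differences. Of 24 Wnt feedback and target genes 7 were higher and 0 lower in all pairs (6 and 1 with median centring). Nkd1, a feedback inhibitor, had the largest smallest-pair difference of these, at 0.09, 0.19 and 0.14, while Cdx1, Cdx2 and the ligand Wnt8a had larger fitted differences, 0.29, 0.27 and 0.20 against 0.14. Axin2, named as the usual reporter of the pathway, was at 0.03, 0.13 and -0.06. In the Nodal and Activin list 6 of 22 were higher and 1 lower, with the inhibitory Smad7 at 0.20, 0.23 and 0.11 and the ligand Nodal, named for its role, at 0.26, -0.05 and -0.05. In the BMP list 2 of 25 were higher and 3 lower, with Grem1, a BMP antagonist, at -0.23, -0.14 and -0.13. The target Id1 was at -0.09, 0.24 and 0.12. In the FGF list 8 of 24 were higher and 1 lower (4 and 2 with median centring), with Fgfr1 at 0.18, 0.17 and 0.09 and the ERK feedback phosphatase Dusp6 at 0.06, 0.06 and 0.04. Of 29 genes of epithelial transition and adhesion 6 were higher and 0 lower (2 and 0 with median centring). The epithelial splicing factor Esrp2 was at 0.34, 0.09 and 0.45, the tight junction claudin Cldn4 at 0.36, 0.03 and 0.51 and the keratin Krt18 at 0.09, 0.19 and 0.25.

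Among chromatin complexes that bind Geminin, most subunits were near 0. Of 30 BAF subunits 6 were higher and 2 lower in all pairs, around a median of 0.02. Dpf3, a tissue-restricted subunit that reads histone marks, was the exception. It stood at 8.44, 8.96 and 9.23 without dox and at 8.18, 8.10 and 8.32 with it, differences of -0.25, -0.86 and -0.91, so its dox arrays lay below every control (fitted difference -0.68 ± 0.17 SE; limma adjusted p = 1.00). The ATPase Smarca4 (Brg1), which Geminin binds, was at -0.03, 0.01 and 0.06. Of 29 polycomb subunits 6 were higher and 5 lower, with a median of -0.01. Pcgf1 and Rnf2, both subunits of polycomb complex PRC1, were at -0.29, -0.22 and -0.12 and at -0.25, -0.11 and -0.19, and Ezh2, the histone methyltransferase, at -0.03, 0.01 and 0.00. Smarca4 and Ezh2 are named for their role.

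Of the stress lists, the hypoxia and glycolysis list alone had pair medians of opposite sign under quantile normalization. Of 28 genes of the Atf4 response to amino acid and protein folding stress 9 were higher and 0 lower in all pairs, but 2 and 2 with median centring. Nupr1, a stress-induced nuclear protein, was at 0.24, 0.34 and 0.30 and Sesn2, also on the p53 list, at 0.08, 0.30 and 0.29. Their replicates were far apart without dox, Nupr1 at 7.74, 8.87 and 7.30 and Sesn2 at 9.81, 11.12 and 9.99. In the hypoxia and glycolysis list 22 of 27 genes were higher with dox in pair 1, 1 of 27 in pair 2 and 4 of 27 in pair 3, with medians of 0.155, -0.295 and -0.158, and 0 were higher and 5 lower in all pairs. The shares of all genes higher in these pairs were 50.2%, 55.3% and 57.5%. The sign of each median held under the other scalings, at 0.136, -0.255 and -0.184 with no quantile normalization and at 0.02, -0.305 and -0.096 with median centring. Aldoc, a glycolytic aldolase, was at 0.44, -1.04 and -0.63, Egln3, an oxygen sensor, at 0.41, -0.64 and -0.50, and Pgk1 at 0.35, -0.30 and -0.27, all chosen after their values were seen. Here the day 5 pairs were on opposite sides, and pair 2 sided with day 4. Of 18 interferon response genes 6 were higher and 1 lower, with a median of 0.11. Ifi35 was at 0.31, 0.15 and 0.18 and Oas1a at -0.24, -0.19 and -0.25. In the feeder fibroblast list 5 of 24 were higher and 2 lower, with a median of 0.04. Acta2, smooth muscle actin, was at 0.22, 0.18 and 0.53 and Mmp3 at 0.15, 0.31 and 0.25.

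The dox effect of the overexpression line was last set against that of the knockdown line, which shares no array with it but differs in the day dox began and in the days of collection. By limma 0 genes (0%) differed between the lines after adjustment, with a smallest adjusted p of 0.486. At an unadjusted p under 0.05 the overexpression effect was the higher for 640 genes and the lower for 744. With median centring 11 genes passed, and with the robust variance prior 7. Ranked by p, Gmnn came first among genes with the higher effect in the overexpression line, at 0.82 against -0.50, a difference of 1.32 ± 0.14 (SE). By p the next were Nphs1 (nephrin), at 0.25 against -0.46, and Lgals1 (galectin-1), at 0.13 against -0.49. Lrat had a larger difference than Gmnn, 1.36, with a larger p. In the other direction the smallest p were those of the mechanosensitive channel Piezo2, at -0.27 against 0.70, the Wnt agonist Rspo3, at -0.06 against 0.64, and the RNA-binding protein Rbmx, at -0.20 against 0.44. A difference between the lines can come from 1 line alone, as for Rspo3.

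The lists were set side by side in the lines by the sign of the fitted effect, which was higher than 0 for 56.7% of all genes in the overexpression line and for 52.7% in the knockdown line. Of the 28 pluripotency genes 26 were higher in the overexpression line and 7 in the knockdown line, with medians of 0.12 and -0.18. Zfp42 was at 0.31 ± 0.14 against -0.80 ± 0.14 (SE). Of the 24 streak genes 12 were higher in the overexpression line, near the share of all genes, and 20 in the knockdown line, with medians of -0.01 and 0.39. Eomes was at -0.31 ± 0.14 against 0.88 ± 0.14, a difference of -1.19 ± 0.19 (SE; limma adjusted p = 0.486). Primed epiblast genes mostly stood above 0 in both lines, 12 and 17 of 18, with medians of 0.06 and 0.23. Among them Wnt8a was at 0.20 and 0.74 and Lef1 at 0.09 and 0.29, whereas Otx2 was at -0.33 against 0.28 and Fgf5 at -0.26 against 0.54. Definitive endoderm genes were higher for 5 of 25 in the overexpression line and for 15 of 25 in the knockdown line, with Frzb at -0.41 against 0.56. Primitive and visceral endoderm genes were higher for 16 and 3 of 26. Haemangioblast, blood and endothelium genes had medians below 0 in both lines, -0.068 and -0.015, with 9 and 12 of 26 higher. Kdr, on this list and the lateral mesoderm list, was at -0.27 against 0.45. Atf4 genes were higher for 21 of 28 in the overexpression line and 2 of 28 in the knockdown line. List values of the knockdown line were taken under quantile normalization only, so their dependence on the scaling was not tested. Its replicate 3 had deposited array medians of 182.19 without and 148.61 with dox. In the overexpression line the Atf4 genes higher in all pairs went from 9 to 2 with median centring. Wnt8a, Lef1, Otx2, Fgf5, Frzb and Kdr were chosen here after their values were seen. Across all genes the effects of the lines correlated at Pearson r = -0.04, and at -0.09 without Hprt and Gmnn. No single gene passed, so these counts describe the arrays of the series and carry no test.

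**Figure D5:**
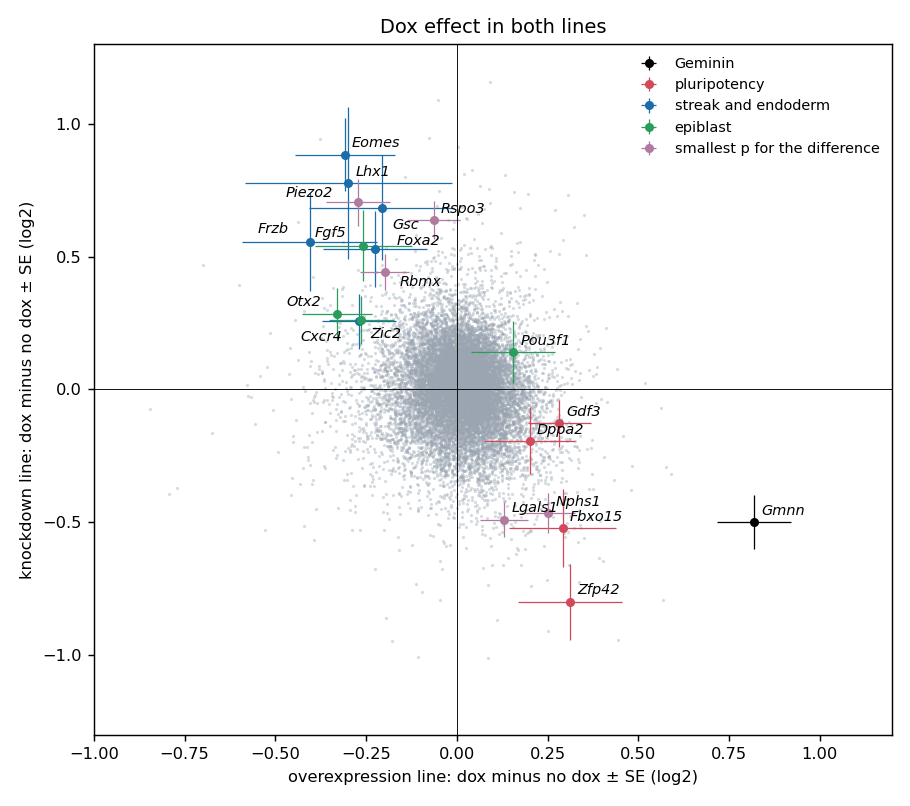
Difference with dox in the overexpression line (x axis, log2) against the knockdown line (y axis, log2) for tested genes, with named genes and their SE bars coloured by group. Gmnn and 4 pluripotency genes lie at the lower right, 6 streak and endoderm genes at the upper left, and Hprt, at 3.44 and 3.81, lies outside the plotted range. The coloured genes are a selection and do not stand for their lists. Of all 24 tested streak genes 12 were higher in the overexpression line and 20 in the knockdown line. Of all 28 tested pluripotency genes 26 and 7 were higher.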

How the data were processed

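The authors deposited linear intensities, a value for each probe set on each of 12 arrays of total RNA (1 µg each, biotin labelled) from mouse embryoid bodies. How they were summarised, background corrected and normalized is not given in the sources used here. Values were transformed as log2(intensity + 1) and quantile normalized over 35512 probe sets. The deposited intensities had log2 array medians of 7.19 to 7.52, and precision is limited by the number of arrays. A log2 difference on this scale understates the fold of a dim gene. Probe sets were named from the platform annotation: 21789 had 1 gene, 1621 several and 12102 none. Of the 21789, 21698 matched RefSeq (GRCm38.p6) by gene number, and 0 symbols needed an update. The brightest probe set stood for each of 19938 genes, and a filter at the 20th percentile of the mean level (6.46) kept 15950.

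The 12 arrays entered 1 model in limma (version 3.58.1, R version 4.3.3). Each pair had its own baseline, which is the replicate block and also holds the day, and each line 1 dox effect, with 4 residual and 3.1 prior degrees of freedom. Further contrasts were day 4 minus day 5 (3 residual degrees of freedom) and overexpression minus knockdown line. SE is that of the model, and adjusted p is Benjamini-Hochberg over 15950 genes with a threshold of 0.05. The steps were tested on simulated data. The pairing comes from the replicate numbers and shared days in the titles. After removing group means, same-numbered arrays correlated at 0.785 on day 5 (1 value for both pairs, since groups of 2 mirror each other) and at 0.602, 0.438 and 0.051 in the knockdown line.

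Besides Gmnn and Hprt, genes were named where they passed, up to 12 in each direction by the largest smallest-pair difference (the smallest of the 3 pair differences in size, all of one sign), 5 in each direction for opposite days, 3 in each direction against the knockdown line, and up to 4 for each list by the smallest-pair difference. Predicted, olfactory, immunoglobulin segment and small RNA genes were not named. The genes, lists and rules were chosen with earlier results of these data known. Of 710 list entries (25 lists, with 58 genes in more than 1), 27 lack a probe set of their own (not analysed here), and 24 fell below the filter. Ero1a was matched through an older symbol. Alternatives were no quantile normalization, median centring, no replicate block, the 6 overexpression arrays alone, no filter or the 40th percentile, a pseudocount of 16, the mean over probe sets, a trended and robust variance prior, and each pair left out.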

Additional observations from a re-analysis of the deposited data

Results flagged for a closer look

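In 6 lists the medians of both day 5 pairs stood on one side of 0 and that of the day 4 pair on the other. The difference between days was not tested for any list, day 4 has 1 pair, and day cannot be told apart from replicate 3. The Hox list had a day 4 median of -0.163 against 0.132 and 0.109 on day 5, with the same signs under each scaling. The definitive endoderm and axial organizer list had a day 4 median of 0.014 against -0.283 and -0.139, but with no quantile normalization the day 4 median was -0.045. The haemangioblast, blood and endothelium list had a day 4 median of 0.055 against -0.031 and -0.175, and with no quantile normalization the median of pair 1 was 0.078. The primitive streak and mesendoderm list had a day 4 median of -0.089 against 0.008 and 0.067, and with median centring the day 4 median was 0.008 and that of pair 1 -0.089. In the other two the day 4 median was close to 0: 0.002 against -0.004 and -0.033 in the primitive and visceral endoderm list, and 0.001 against -0.003 and -0.028 in the polycomb list.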

How the results depend on the processing

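With 3 pairs, 1 of them on day 4, few differences could pass, so the genes that did not pass include any with true differences of this size. The count of genes that passed as higher went from 1 to 2 with median centring and with the trended robust prior, and to 0 (range 0 to 0) when any pair was left out. Gmnn then passed at 0.797 with median centring and at 0.818 with the robust prior, and Hprt, at 3.291 to 3.697, missed the threshold without any 1 pair. At an unadjusted p under 0.05, 112 genes were higher with median centring, 55 with no replicate block, 515 with the overexpression arrays alone, and 135 to 202 when a pair was left out. Lower were 150 with no quantile normalization, 94 with no replicate block, 434 with these arrays alone, and 168 to 253 when a pair was left out. Without the paired replicate block both counts are thus smaller. Genes higher in all pairs numbered 1595 with median centring. Between the lines 11 genes passed with median centring and 7 with the robust prior. The causes were not tested. In 1463 gene-by-alternative values 0 had the opposite sign to that reported, while 18 of 300 list medians did (the largest of these was reported at -0.068, for the haemangioblast list). The 0 was largely set by the choice of genes, most of them named for sharing a sign in all 3 pairs. Several alternatives, such as no replicate block, also leave the fitted difference unchanged, so the 0 is no measure of robustness.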
